A study of Mus musculus with 2 samples.

Results

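The 10 genes described here carry water, urea and sodium across the epithelium of the kidney collecting duct, or set how much of each is carried. They are the water channels Aqp2, Aqp3 and Aqp4, the vasopressin receptor Avpr2, the urea transporter Slc14a2, the sodium channel subunits Scnn1a, Scnn1b and Scnn1g, the mineralocorticoid receptor Nr3c2 and the steroid dehydrogenase Hsd11b2. They were taken by symbol from the gene tables, by a rule that uses no measured value, and are 10 of the 32285 genes counted. Their transcripts were followed in single nuclei from kidneys of 2 ages, with 1 library per age. The E18.5 library came from embryonic kidneys of genotype Mycf/f;Mycnf/f (no Cre), which carry conditional alleles of 2 Myc genes and no Cre to recombine them, on a mixed strain background. The P3 library came from wild type kidneys, labelled C57BL/6J, at postnatal day 3. Each library pooled kidneys of several mice of both sexes. Age, genotype, background, library and the Cell Ranger release in the file headers therefore changed together and cannot be told apart, and with 1 library per age no difference between the ages has a replicate check.

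The collecting duct adjusts the final volume and salt content of urine. Vasopressin binds the receptor AVPR2 on the basolateral side of principal cells and, through cyclic AMP and protein kinase A, drives AQP2 into the apical membrane. Water then leaves the cell through AQP3 and AQP4 on the basolateral side, and in the inner medulla vasopressin also stimulates the urea transporters encoded by Slc14a2. Sodium enters through the epithelial sodium channel ENaC, built of the alpha, beta and gamma subunits encoded by Scnn1a, Scnn1b and Scnn1g. Aldosterone acts on ENaC through the mineralocorticoid receptor, and HSD11B2 inactivates glucocorticoids that would otherwise occupy that receptor.

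The sequences before the transcription start are shown for 3 members, because Aqp2 is the vasopressin-regulated channel and because Scnn1b and Scnn1g had the most alike levels of any pair of members across clusters of nuclei. Each is a stretch of 240 bases that ends 10 bases before the RefSeq start, on the gene's own strand, in assembly GRCm38.p6. Aqp2 is on chromosome 15, and its stretch is chr15:99578806-99579045 on the plus strand. Scnn1g and Scnn1b lie in the same orientation on chromosome 7, with 96.56 kb between the end of the first and the start of the second, and their stretches are chr7:121734229-121734468 and chr7:121864788-121865027. Capitals mark matches, on either strand, to the core of the cyclic AMP response element (TGACG). They also mark matches to a motif of GATA transcription factors (AGATAA) and to the hexamer bound by steroid receptors (AGAACA).
Aqp2: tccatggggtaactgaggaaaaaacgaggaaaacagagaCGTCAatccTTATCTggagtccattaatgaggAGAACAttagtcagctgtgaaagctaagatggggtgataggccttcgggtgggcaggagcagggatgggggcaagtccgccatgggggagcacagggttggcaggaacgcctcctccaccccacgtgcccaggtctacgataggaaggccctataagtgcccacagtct
Scnn1g: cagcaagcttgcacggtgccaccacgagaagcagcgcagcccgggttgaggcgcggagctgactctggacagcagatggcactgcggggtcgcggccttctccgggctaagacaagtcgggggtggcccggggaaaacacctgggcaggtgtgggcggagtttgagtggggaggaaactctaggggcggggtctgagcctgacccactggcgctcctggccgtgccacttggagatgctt
Scnn1b: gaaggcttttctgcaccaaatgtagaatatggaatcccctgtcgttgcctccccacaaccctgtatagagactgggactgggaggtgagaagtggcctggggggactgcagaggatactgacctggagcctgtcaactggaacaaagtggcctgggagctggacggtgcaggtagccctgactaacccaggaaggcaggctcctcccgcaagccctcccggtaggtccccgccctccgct

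The Aqp2 stretch held CGTCA, the other-strand form of TGACG, 211 bases before the start, TTATCT, the other-strand form of AGATAA, 202 bases before it, and AGAACA 179 bases before it. Of the 32851 promoters in the table, 16.9% held TGACG, 9.74% held AGATAA and 15.5% held AGAACA in the same window. The Scnn1b and Scnn1g stretches held none of these letters, nor TATAAA, which 12.1% of promoters held. A match is a description of the letters and was not tested for binding. Entries were searched for 6 of the 10 members, and those for Scnn1a and Hsd11b2 were not used here.

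After quality limits the E18.5 library held 21270 nuclei with a median of 3132.5 unique molecular identifiers (UMIs, each counting 1 captured transcript) and the P3 library 11765 nuclei with a median of 4534. The libraries shared 69 cell barcodes. Graph-based clustering, from which the 10 members and 44 related genes were left out, gave 26 clusters in the E18.5 and 35 in the P3 library. A cluster was called collecting duct-like from a list of 8 markers that included Kcnh7, Mgat4c and Lypd6. Levels are given as counts per 1000000 UMIs (CPM), summed over the nuclei of a type, with 95% Poisson intervals that cover counting error only. Nuclei of types that should lack a transcript still held some of its UMIs, and the level in endothelium-like nuclei, 1101 at E18.5 and 801 at P3, is given as that background. That background is rough, since some types held less than endothelium-like nuclei. Proximal tubule-like nuclei held 16.3 CPM of Aqp2 at E18.5 against 22.9, and 2.08 CPM of Hsd11b2 at P3 against 6.25. For Nr3c2 the endothelium level was not read as background, as described below. Shallow clusters without a name, cluster 13 at E18.5 (2830 nuclei, median 1254 UMIs) and cluster 16 at P3 (1558 nuclei, median 970 UMIs), held 65.0 and 48.9 CPM of Aqp2.

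The collecting duct-like nuclei numbered 620 at E18.5, 2.91% of nuclei (95% binomial interval 2.69% to 3.15%), and 139 at P3, 1.18% (0.994% to 1.39%). The lower share at P3 depended on how the class was drawn. Leiden clusters gave 2.61% and 3.81%, and nuclei with at least 2 of 3 markers 5.27% and 5.28%. The marker shares counted any UMI of a marker in nuclei that were not thinned. Median depth was 3132.5 UMIs at E18.5 and 4534 at P3, and the part of depth in the marker shares was not tested. The Leiden shares are not of like classes. At E18.5 a ureteric tip-like Leiden cluster of 631 nuclei stood apart, and at P3 none did. The P3 collecting duct-like Leiden cluster, 448 nuclei, had 9230110F11Rik and Ros1 among its leading genes. So did the ureteric tip-like cluster of the main clustering. The collecting duct-like class of the main clustering was named from 8 collecting duct markers raised at least 2-fold. Their levels are therefore no separate check of its identity. At E18.5 all 8 collecting duct markers were at least 2-fold above the other nuclei, among them Kcnh7 at 18.6-fold and Mgat4c at 23.2-fold. At P3 7 of the 8 were, with Mgat4c at 38.3-fold. The exception was Tfcp2l1, a transcription factor of the collecting duct, at 1.10-fold. Of the other lists, 1 of 8 intercalated cell markers (Atp6v1b1, 2.83-fold) and 1 of 5 glial markers (Erbb3, 2.40-fold) stood at least 2-fold higher at E18.5, and none did at P3. The summed intercalated list came to 69.9 CPM in collecting duct-like nuclei against 64.4 CPM elsewhere at E18.5, and to 92.3 against 107.9 CPM at P3. Within that list Slc4a1 and Slc26a4 were at 0 UMIs in collecting duct-like nuclei at both ages, while Slc4a9 was at 22.1 CPM against 17.9 elsewhere at E18.5 and 57.97 against 38.7 at P3, and was among the markers raised in 2 of the sub-clusters described below. The part of intercalated cells in the results was not tested.

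**Figure D1:**
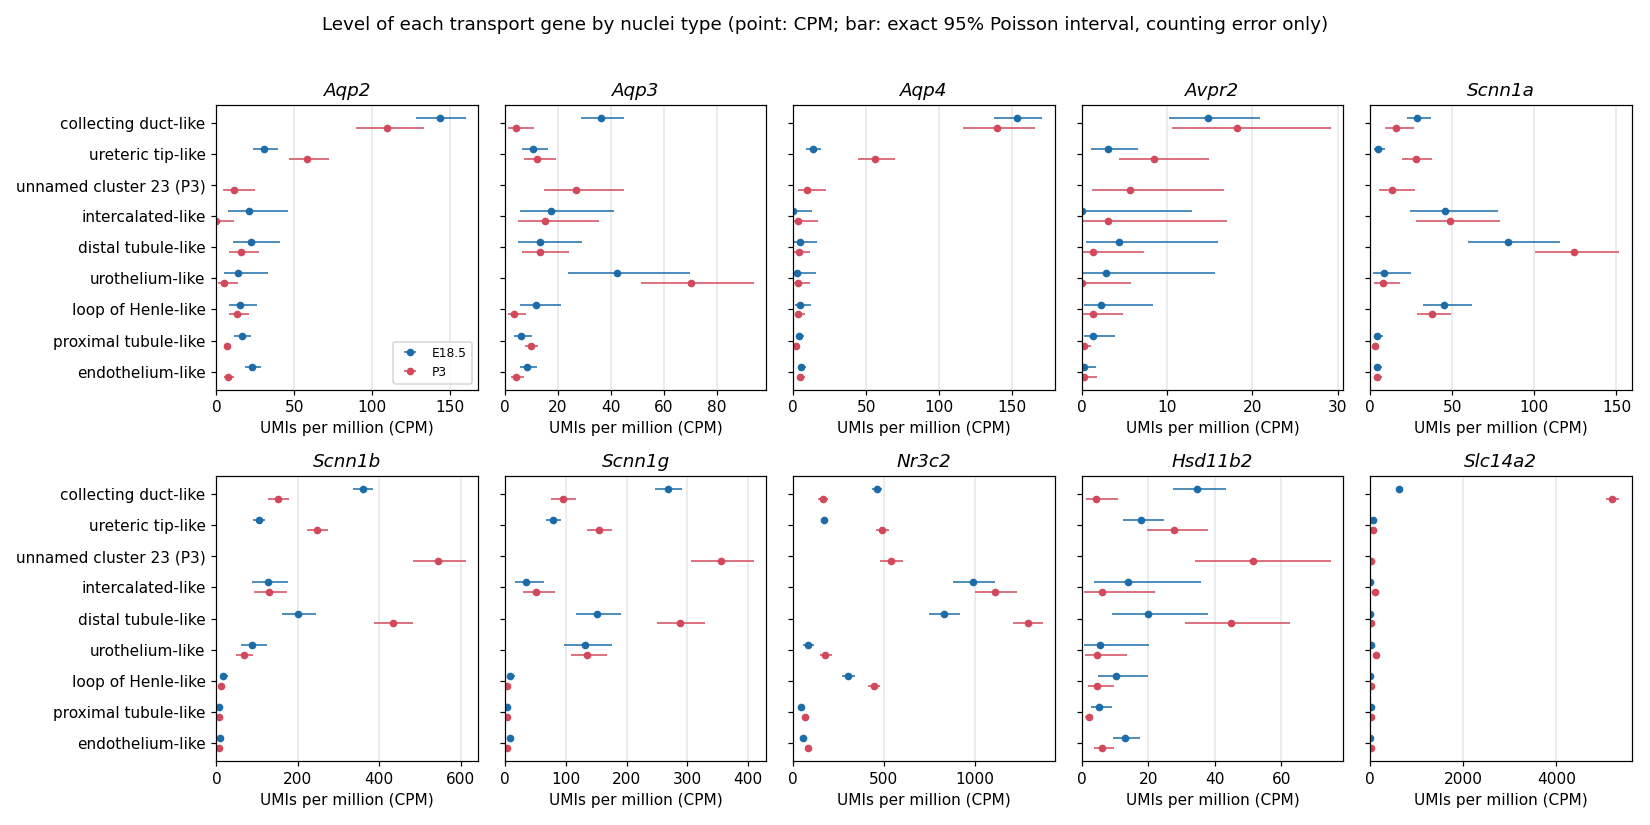
Level of each of the 10 genes (CPM, x axis) by nuclei type (y axis) at E18.5 and P3. Points are sums over the nuclei of a type in 1 library and bars are 95% Poisson intervals. Aqp2, Aqp4 and Slc14a2 stood highest in collecting duct-like nuclei at both ages, while Scnn1a and Nr3c2 stood higher in distal tubule-like and intercalated-like nuclei.

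Aqp2, the apical water channel, was at 143.3 CPM (128.0 to 160.0) in collecting duct-like nuclei at E18.5 and at 109.5 CPM (89.3 to 132.9) at P3. Endothelium-like nuclei held 22.9 CPM at E18.5 and 7.56 CPM at P3. Collecting duct-like nuclei thus ranked first for Aqp2 at both ages, 2.21-fold (1.86 to 2.62) above the shallow cluster 13 at E18.5 and 1.88-fold (1.39 to 2.54) above ureteric tip-like nuclei at P3. That P3 tip-like class included 125 Rhcg-led nuclei, described below, at 121.5 CPM of Aqp2. Its tip-marker sub-cluster held 8.99 CPM. The same mix enters every P3 value of ureteric tip-like nuclei below. The E18.5 ratio to all other nuclei together was 5.56 (4.92 to 6.26), and the P3 ratio was 8.54 (6.89 to 10.5). At E18.5 only 14.1% of all Aqp2 UMIs in the library lay in collecting duct-like nuclei, and at P3 10.3% did, so most Aqp2 molecules were counted in other nuclei at a low level.

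Aqp4, a basolateral water channel, was at 153.7 CPM (137.8 to 170.9) at E18.5 and 139.6 CPM (116.6 to 165.7) at P3 in collecting duct-like nuclei. Its level in endothelium-like nuclei was 5.65 and 4.93 CPM. Aqp4 was therefore more restricted than Aqp2, with 37.4% of its UMIs at E18.5 and 19.4% at P3 in collecting duct-like nuclei, and ratios to all other nuclei of 20.2 (17.6 to 23.2) and 17.8 (14.6 to 21.6). At E18.5 the second cluster stood 9.26-fold (7.85 to 10.95) lower. The second type at P3 was ureteric tip-like, at 56.2 CPM, and the ratio between the 2 was 2.48 (1.86 to 3.33). Within that type, Rhcg-led nuclei held 111.6 CPM of Aqp4 and the tip-marker sub-cluster 6.42 CPM.

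Aqp3, the other basolateral water channel and a glycerol carrier, followed neither of them. Its highest level was in urothelium-like nuclei at both ages, 42.2 CPM (23.6 to 69.6) at E18.5 and 70.2 CPM (51.2 to 93.9) at P3. Collecting duct-like nuclei held 36.1 CPM (28.6 to 44.9) at E18.5, which did not differ from urothelium-like nuclei beyond counting error (ratio 1.17, 0.626 to 2.05). At P3 they held 4.29 CPM (1.17 to 11.0) from 4 UMIs, a level like the 4.28 CPM of endothelium-like nuclei.

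Avpr2, the receptor that answers to vasopressin, was sparse and ranked first in collecting duct-like nuclei at both ages. It was at 14.9 CPM (10.2 to 20.9) from 33 UMIs at E18.5 and 18.2 CPM (10.6 to 29.2) from 17 UMIs at P3, while endothelium-like nuclei held 1 UMI at each age. The step to the second type was not beyond counting error at either age, with a ratio of 3.35 (0.858 to 28.8) over distal tubule-like nuclei at E18.5 and 2.14 (0.962 to 4.91) over ureteric tip-like nuclei at P3. Of the P3 tip-like nuclei, the Rhcg-led ones held 12 Avpr2 UMIs and the tip-marker sub-cluster 0.

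Slc14a2 had the highest ratio to all other nuclei of any member at both ages. It was at 630.0 CPM (597.4 to 663.9) in collecting duct-like nuclei at E18.5 and 5198 CPM (5052 to 5346) at P3. The second type stood 9.04-fold (8.34 to 9.80) lower at E18.5 and 14.97-fold (14.3 to 15.7) lower at P3, and both of those clusters, which have no name, consisted mostly of called doublets (80.3% of cluster 3 and 78.8% of cluster 15). Other nuclei held 26.5 CPM at E18.5 and 111.5 CPM at P3, so the ratio was 23.7 (22.1 to 25.4) and 46.6 (44.97 to 48.3). Endothelium-like nuclei held 3.87 and 23.7 CPM.

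The epithelial sodium channel subunits differed from the water channels in where they were highest. Scnn1b, the beta subunit, was at 360.1 CPM (335.5 to 385.9) in collecting duct-like nuclei at E18.5, 1.80-fold (1.45 to 2.27) above distal tubule-like nuclei, which came second at 199.5 CPM. At P3 it was highest in the unnamed cluster 23 at 545.5 CPM (484.1 to 612.5), then in distal tubule-like nuclei at 432.8 CPM and ureteric tip-like nuclei at 246.9 CPM, ahead of collecting duct-like nuclei at 150.3 CPM (126.4 to 177.3). Cluster 23 held 107 nuclei, and its leading genes by fold included Plppr1, Chst8, Btc, Tmem52b, Scnn1b and Scnn1g. Each of the first 3 steps of that order exceeded counting error, and the step from collecting duct-like to intercalated-like nuclei (128.0 CPM) did not.

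Scnn1g, the gamma subunit, took nearly the same order. It was at 268.1 CPM (247.0 to 290.6) in collecting duct-like and 150.7 CPM in distal tubule-like nuclei at E18.5, and at 354.8, 287.7 and 154.4 CPM in cluster 23, distal tubule-like and ureteric tip-like nuclei at P3. Collecting duct-like nuclei held 95.5 CPM (76.7 to 117.6) at P3, below urothelium-like nuclei at 135.7 CPM. In urothelium-like nuclei Scnn1g UMIs outnumbered those of Scnn1b, 47 against 31 at E18.5 and 87 against 43 at P3, while in collecting duct-like nuclei they did not, with 595 against 799 and 89 against 140.

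Scnn1a, the alpha subunit that the channel needs for conductance, was not highest in the collecting duct at either age. Distal tubule-like nuclei led at 84.2 CPM (59.6 to 115.6) at E18.5 and 124.0 CPM (100.2 to 151.8) at P3, followed by intercalated-like nuclei at 45.7 and 48.8 CPM and loop of Henle-like nuclei at 45.2 and 37.9 CPM. Collecting duct-like nuclei held 28.8 CPM (22.2 to 36.8) at E18.5 and 16.1 CPM (9.01 to 26.6) at P3. Loop of Henle-like nuclei thus held Scnn1a while Scnn1b stood there at 17.4 and 11.5 CPM and Scnn1g at 8.12 and 4.06 CPM.

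Nr3c2, the mineralocorticoid receptor, was found in more nuclei than any other member, 2963 of 21270 at E18.5 and 3243 of 11765 at P3. Intercalated-like nuclei held 991.6 CPM (879.2 to 1114) at E18.5 and 1113 CPM (1002 to 1233) at P3, and distal tubule-like nuclei 831.3 CPM (749.3 to 919.9) and 1292 CPM (1212 to 1375). Collecting duct-like nuclei followed them at E18.5 with 459.6 CPM (431.9 to 488.7). At P3 they held 163.2 CPM (138.3 to 191.3), below cluster 23 (539.8 CPM), ureteric tip-like nuclei (491.7 CPM) and loop of Henle-like nuclei (445.0 CPM). Among those tip-like nuclei the Rhcg-led ones held 768.3 CPM and the tip-marker sub-cluster 267.1 CPM. Endothelium-like nuclei held 51.8 and 81.6 CPM, which is not read as background for this gene, since some other types held less. Aqp2 and Hsd11b2 showed that pattern too, at lower CPM, and whether the Nr3c2 level is background was not tested. Nephron progenitor-like and podocyte-like nuclei held 15.1 and 11.4 CPM at E18.5, and mural-like nuclei 33.8 CPM at P3.

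Hsd11b2, which protects the receptor from glucocorticoids, was at 34.7 CPM (27.4 to 43.4) in collecting duct-like nuclei at E18.5, and this did not differ beyond counting error from the 29.9 CPM of the shallow cluster 13 (ratio 1.16, 0.859 to 1.56). At P3 its highest levels were in cluster 23 at 51.5 CPM (33.9 to 74.9) and in distal tubule-like nuclei at 44.9 CPM (31.1 to 62.7). Collecting duct-like nuclei held 4.29 CPM from 4 UMIs at P3, below the 6.25 CPM of endothelium-like nuclei. Intercalated-like nuclei, where Nr3c2 was high, held 14.1 CPM of Hsd11b2 from 4 UMIs at E18.5 and 6.10 CPM from 2 UMIs at P3.

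Levels of different genes were also divided by length in kb. A UMI counts a captured transcript whatever its length, so neither order below need rank the abundance of transcripts. Per kb of exon, collecting duct-like nuclei at E18.5 held 136.8 CPM of Scnn1b, 121.8 of Slc14a2, 101.0 of Aqp2, 89.6 of Scnn1g and 71.0 of Nr3c2, and 5.15 CPM of Avpr2. At P3 Slc14a2 reached 1005 CPM per kb of exon and Aqp2 77.2. Per kb of the whole gene the order changed, since Slc14a2 (chromosome 18, 78146148 to 78596942, minus strand) spans 450.8 kb and Aqp2 (chromosome 15, 99579055 to 99584547, plus strand) spans 5.493 kb. At E18.5 Aqp2 came to 26.1 CPM per kb and Slc14a2 to 1.40, and at P3 to 19.9 and 11.5. Aqp2 led on the second scale at both ages, and on the first it stood below Slc14a2. Whether introns were counted is not given in the sources used here.

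Against all other nuclei, all 10 members were at least 2-fold higher in collecting duct-like nuclei at E18.5, from 2.79-fold for Hsd11b2 to 23.7-fold for Slc14a2, where 8.77% of 19894 genes with enough UMIs were. At P3 6 of 10 were, namely Aqp2, Aqp4, Avpr2, Scnn1b, Scnn1g and Slc14a2, where 10.4% of 19537 genes were. No member was at least 2-fold lower at either age, where 21.3% of genes were in the E18.5 library and 33.4% in the P3 library. The 4 members short of 2-fold at P3 were Scnn1a at 1.92 (1.06 to 3.19), Nr3c2 at 1.18 (0.998 to 1.38), Aqp3 at 0.728 (0.197 to 1.88) and Hsd11b2 at 0.630 (0.171 to 1.62). The P3 count was 9 with Leiden clusters, which gave no separate tip-like cluster at P3. It was 10 with the Rhcg-, Mgat4c- and Gsdmc3-led nuclei described below as the class, a choice made after seeing the data. The share over all genes was not computed for either of these definitions, so these counts have no share beside them.

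Between the ages, 1 member stood at least 2-fold higher in collecting duct-like nuclei at P3, where 4.59% of 12057 genes did, and 5 stood at least 2-fold lower, where 20.8% of genes did. The higher one was Slc14a2, with a ratio of P3 to E18.5 of 8.25 (7.77 to 8.76). Slc14a2 was also higher at P3 outside this class. It went from 26.5 to 111.5 CPM in all other nuclei and from 3.87 to 23.7 CPM in endothelium-like nuclei. The other nuclei at P3 included clusters 15 and 6, at 347.3 and 221.0 CPM, where 78.8% and 91.7% were called doublets. The endothelium level is the one given above as background. Whether other nuclei types themselves held more Slc14a2 at P3 was not tested. The lower ones were Aqp3 at 0.119 (0.0317 to 0.317), Hsd11b2 at 0.124 (0.0329 to 0.330), Nr3c2 at 0.355 (0.297 to 0.421), Scnn1g at 0.356 (0.282 to 0.446) and Scnn1b at 0.417 (0.346 to 0.5001). Aqp2 at 0.764 (0.605 to 0.958), Scnn1a at 0.558 (0.296 to 0.991), Aqp4 at 0.908 (0.736 to 1.12) and Avpr2 at 1.23 (0.641 to 2.27) stayed within 2-fold. The median log2 ratio was -1.05 over the members and -0.27 over all genes.

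The nuclei called collecting duct-like were not of the same make-up at the 2 ages. The collecting duct-like and ureteric tip-like nuclei of each age were clustered again, without the members, into 5 sub-clusters at E18.5 and 4 at P3, and sub-clusters were paired across ages by how many of their 50 leading genes they shared. The pairs were tip-marker sub-clusters (22 shared genes, with Ret, Wnt11 and Etv5 raised), Gsdmc3-led sub-clusters (21 shared), Mgat4c-led sub-clusters (17 shared, among them Mgat4c and Crisp1) and Rhcg-led sub-clusters (16 shared, among them Spock3 and Hsd3b6). At E18.5 the Rhcg-led sub-cluster held 456 nuclei, 441 of them from the collecting duct-like cluster, and the Mgat4c-led one held 57. At P3 the Rhcg-led sub-cluster held 125 nuclei, of which 0 came from the collecting duct-like cluster and all from the tip-like one, and the Mgat4c-led one held 128, of which 125 were collecting duct-like. Rhcg encodes an ammonia transporter of the collecting duct and connecting tubule. The P3 Mgat4c-led sub-cluster also shared 15 leading genes with the Gsdmc3-led one of E18.5, so its pairing is close to a tie. These 2 E18.5 sub-clusters differed in Aqp2 (148.9 CPM in Mgat4c-led and 23.03 CPM in Gsdmc3-led nuclei) and Scnn1g (252.7 and 103.6 CPM), so the age ratios of Mgat4c-led nuclei depend on the pairing. The remaining E18.5 sub-cluster, of 274 nuclei led by Abca13 and Slc12a3, had no partner.

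**Figure D2:**
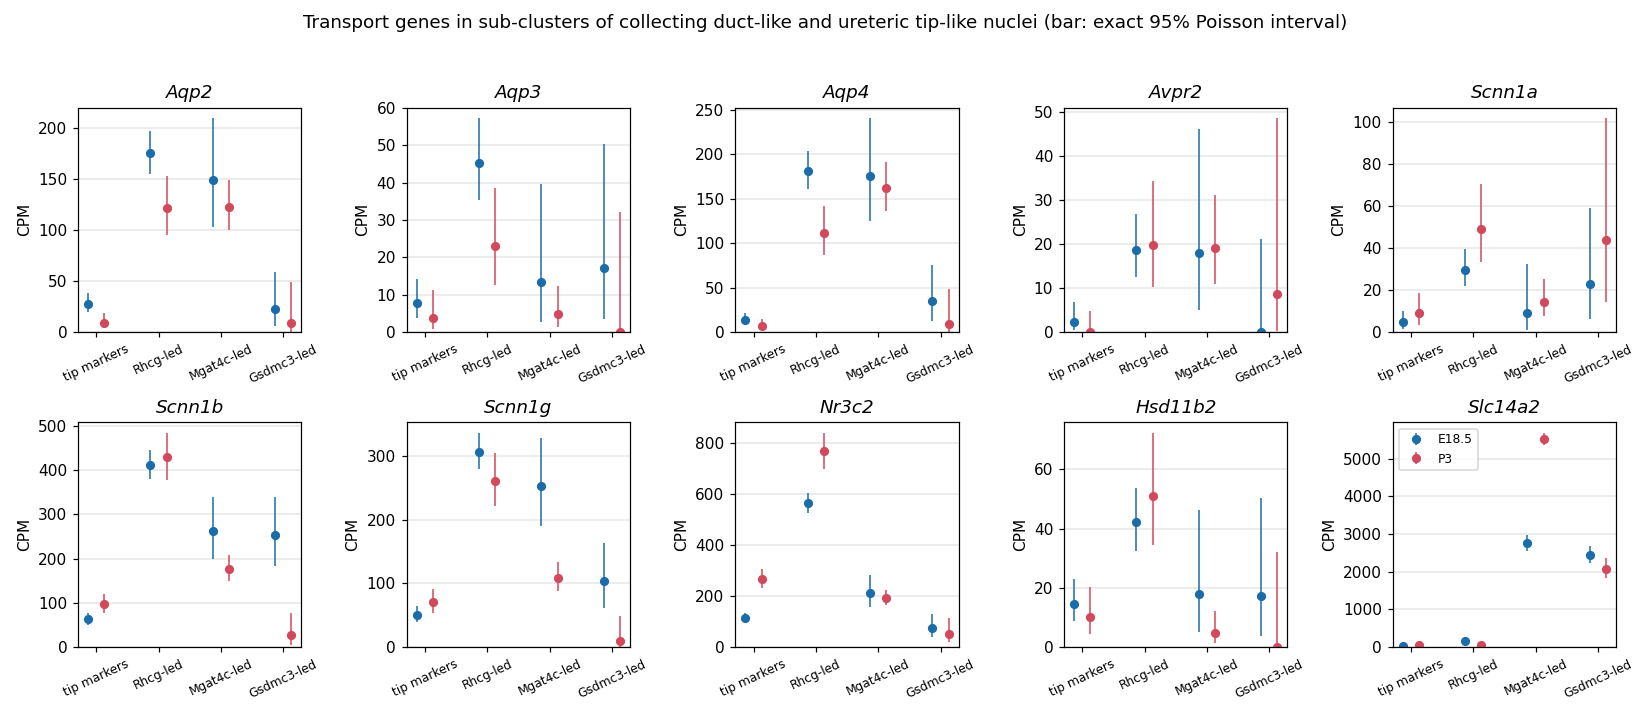
Level of each of the 10 genes (CPM, y axis) in the paired sub-clusters of collecting duct-like and ureteric tip-like nuclei (x axis) at E18.5 and P3. Points are sums over the nuclei of a sub-cluster and bars are 95% Poisson intervals. Slc14a2 stood at 2752 and 5520 CPM in the Mgat4c-led sub-clusters and at 168.3 and 57.5 CPM in the Rhcg-led ones, while Nr3c2 stood at 212.1 and 193.0 CPM in the former and at 565.0 and 768.3 CPM in the latter.

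The urea transporter and the sodium-handling members were highest in different sub-clusters, and Aqp2 was at a like level in both. At P3 Slc14a2 was at 5520 CPM (5362 to 5682) in the Mgat4c-led and at 57.5 CPM (40.0 to 79.9) in the Rhcg-led sub-cluster, a ratio of 96.1 (69.0 to 138). Aqp2 was at 122.2 CPM (99.7 to 148.4) and 121.5 CPM (95.4 to 152.5) in the same pair, a ratio of 1.01 (0.739 to 1.38). Avpr2, at 19.2 and 19.7 CPM, had a ratio of 0.973 (0.432 to 2.25), an interval that leaves room for more than a 2-fold difference in either direction. Aqp4 was at 161.8 and 111.6 CPM, a ratio of 1.45 (1.08 to 1.97).

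The sodium-handling members went the other way at P3. Nr3c2 was at 193.0 CPM (164.3 to 225.2) in the Mgat4c-led and 768.3 CPM (700.3 to 841.2) in the Rhcg-led sub-cluster, a ratio of 0.251 (0.209 to 0.301). The ratio was 0.414 (0.336 to 0.508) for Scnn1b, 0.418 (0.319 to 0.544) for Scnn1g, 0.292 (0.136 to 0.587) for Scnn1a and 0.0942 (0.0242 to 0.266) for Hsd11b2. Aqp3, at 4.79 and 22.98 CPM, was also lower in the Mgat4c-led nuclei (0.209, 0.0500 to 0.664). The Rhcg-led nuclei thus held more of the 3 channel subunits, the receptor and Hsd11b2, with little Slc14a2. The Mgat4c-led nuclei held Slc14a2 with a like level of Aqp2, and Avpr2 was at 19.2 CPM there and 19.7 CPM in Rhcg-led nuclei. The Mgat4c-led nuclei still held Scnn1b at 177.4 CPM and Scnn1g at 109.1 CPM, against 5.92 and 3.95 CPM in endothelium-like nuclei.

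At E18.5 Slc14a2 again stood far higher in the Mgat4c-led sub-cluster, and Nr3c2 and Scnn1b were lower there. Slc14a2 was at 2752 CPM (2538 to 2980) in the Mgat4c-led and 168.3 CPM (148.4 to 190.0) in the Rhcg-led sub-cluster, a ratio of 16.4 (14.1 to 19.0). The ratio was 0.852 (0.575 to 1.23) for Aqp2 and 0.971 (0.676 to 1.36) for Aqp4, neither beyond counting error. It was 0.375 (0.274 to 0.503) for Nr3c2 and 0.636 (0.477 to 0.833) for Scnn1b, and 0.822 (0.612 to 1.09) for Scnn1g, which was not beyond counting error. Scnn1a (0.303, 0.0356 to 1.16), Hsd11b2 (0.429, 0.114 to 1.15) and Aqp3 (0.299, 0.0602 to 0.910) rest on 2, 4 and 3 UMIs in the Mgat4c-led nuclei. Whether the ratios themselves differed between the ages was not tested.

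Gsdmc3-led nuclei, 44 at E18.5 and 14 at P3, held the urea transporter with less Aqp2 than the Mgat4c-led nuclei at E18.5. Slc14a2 was at 2447 CPM (2220 to 2691) at E18.5 and 2085 CPM (1829 to 2366) at P3. Aqp2 was at 23.03 CPM (6.28 to 59.0) from 4 UMIs and 8.72 CPM (0.221 to 48.6) from 1 UMI, intervals that include the levels of endothelium-like nuclei. Aqp4 was at 34.5 CPM (12.7 to 75.2), above the 5.65 CPM of endothelium-like nuclei, and at 8.72 CPM (0.221 to 48.6). Aqp3 was at 17.3 CPM from 3 UMIs at E18.5, where the Mgat4c-led nuclei held 13.5 CPM. Within E18.5 the Gsdmc3-led sub-cluster held 0.155 (0.0398 to 0.435) of the Aqp2 level of the Mgat4c-led one and 0.889 (0.784 to 1.01) of its Slc14a2 level. Together the Mgat4c-led and Gsdmc3-led nuclei, 4.73% and 3.65% of the re-clustered nuclei at E18.5, held 39.7% and 27.7% of the Slc14a2 UMIs there. At P3 the Mgat4c-led nuclei alone, 31.1% of the total, held 93.5%. In these 4 sub-clusters Kcnh7 stood between 584.4 and 2098 CPM and the tip marker Ret between 0 and 4.79 CPM.

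The tip-marker sub-clusters, 373 and 144 nuclei, held Aqp2 and Aqp4 at low levels, and Scnn1b and Nr3c2 above the levels of endothelium-like nuclei. Aqp2 was at 27.8 CPM (19.5 to 38.5) at E18.5 and 8.99 CPM (3.61 to 18.52) at P3, near the 22.9 and 7.56 CPM of endothelium-like nuclei, and Aqp4 was at 13.1 and 6.42 CPM. Scnn1b at 62.6 CPM (49.7 to 77.8) and 96.3 CPM (75.7 to 120.7) stood above the 9.82 and 5.92 CPM of endothelium-like nuclei. Nr3c2 was at 114.4 and 267.1 CPM, a ratio of P3 to E18.5 of 2.34 (1.88 to 2.90). The P3 level stood above the 193.0 CPM of Mgat4c-led nuclei at that age.

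When paired sub-clusters were compared between the ages, fewer members differed by 2-fold. The Rhcg-led pair was not alike in its markers. Against the other re-clustered nuclei, Kcnh7, Lypd6, Tfcp2l1 and Elf5 were raised at E18.5. At P3 Tfcp2l1 was the only collecting duct marker raised, beside the distal tubule marker Slc12a3. Kcnh7 stood at 1379 CPM at E18.5 and 641.9 CPM at P3, so these ratios need not compare the same kind of nuclei. In Rhcg-led nuclei no member was at least 2-fold higher at P3 (4.37% of 10880 genes were) and 1 was lower (15.2% were), and this was Slc14a2 at 0.342 (0.233 to 0.487). Scnn1b was at 411.6 and 428.5 CPM (ratio 1.04, 0.898 to 1.204), Scnn1g at 307.4 and 261.0 CPM (0.849, 0.705 to 1.02) and Hsd11b2 at 42.1 and 50.9 CPM (1.21, 0.762 to 1.88), and Nr3c2 was higher at P3 by 1.36 (1.21 to 1.52). In these nuclei Aqp2 had a ratio of 0.695 (0.530 to 0.902), Aqp4 of 0.616 (0.466 to 0.805) and Aqp3 of 0.507 (0.264 to 0.909).

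In Mgat4c-led nuclei, as paired above, 7 members had enough UMIs, and 1 was at least 2-fold higher at P3, where 8.48% of 7747 genes were. This was Slc14a2 at 2.01 (1.84 to 2.19). The 1 that was lower, where 12.7% of genes were, was Scnn1g at 0.432 (0.306 to 0.613), from 252.7 to 109.1 CPM. Aqp2 had a ratio of 0.821 (0.550 to 1.25), Aqp4 of 0.920 (0.640 to 1.35) and Nr3c2 of 0.910 (0.654 to 1.29), none beyond counting error. The direction for Slc14a2 was thus upward in Mgat4c-led and downward in Rhcg-led nuclei, and the 8.25-fold value of the whole collecting duct-like class lay above both. The difference between those 2 ratios was not tested.

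With all collecting duct-like and ureteric tip-like nuclei of an age summed, a level that does not depend on where the boundary between them fell, 1 member was at least 2-fold higher at P3 (3.82% of 14033 genes were) and 1 was lower (14.0% were). Slc14a2 remained the higher one at 5.75, and Aqp3 the lower one at 0.372. The ratio was 0.872 for Aqp2, 0.870 for Scnn1b, 0.688 for Hsd11b2 and 1.11 for Nr3c2. The share of nuclei in the Rhcg-led, Mgat4c-led and Gsdmc3-led sub-clusters was 2.62% of all nuclei at E18.5 and 2.27% at P3.

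**Figure D3:**
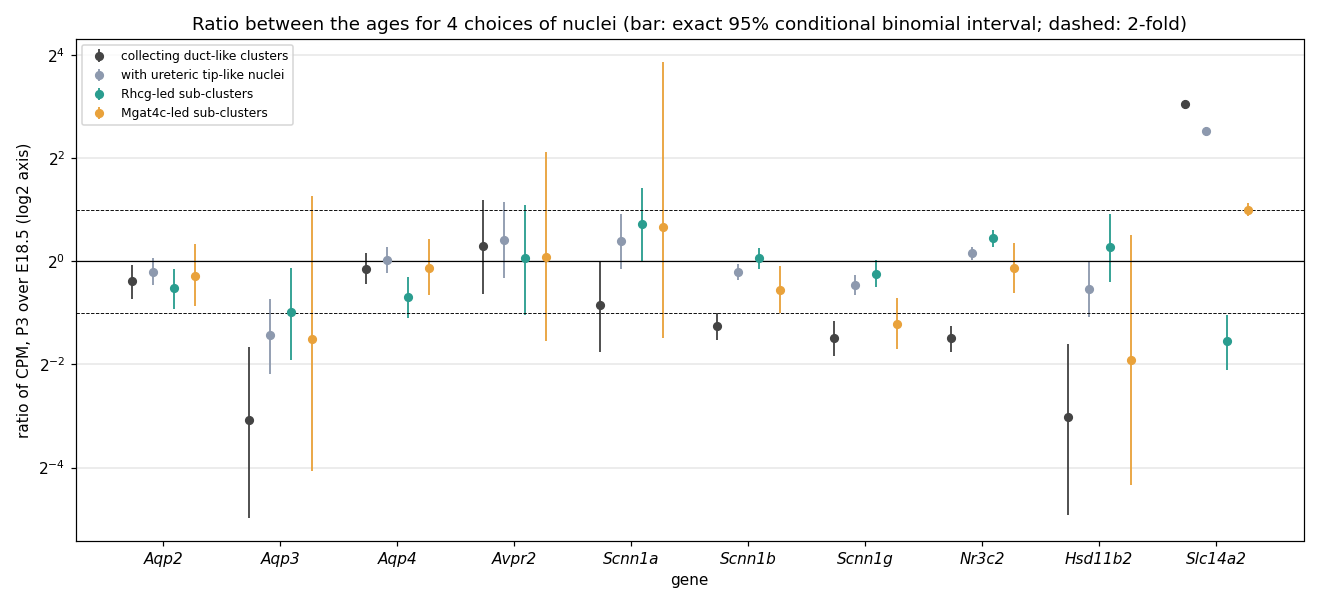
Ratio of P3 to E18.5 CPM (log2 axis) for each of the 10 genes (the other axis) under 4 choices of nuclei: collecting duct-like, collecting duct-like with ureteric tip-like, Rhcg-led and Mgat4c-led. Bars are exact 95% intervals from counting error and dashed lines mark 2-fold. Slc14a2 ran from 0.342 in Rhcg-led to 8.25 in collecting duct-like nuclei, and Scnn1b, Nr3c2 and Hsd11b2 lay below 1 in the collecting duct-like class and above 1 in Rhcg-led nuclei.

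Shares of nuclei with at least 1 UMI were compared after each nucleus was thinned to 1000 UMIs, since median depth was 3358 UMIs in collecting duct-like nuclei at E18.5 and 6235 at P3. Slc14a2 was found in 18.7% of them (15.7% to 22.0%) at E18.5 but in 90.6% (84.5% to 94.9%) at P3, against 0.183% and 3.13% of endothelium-like nuclei, whose median depths were 2821 and 3438 UMIs. Before thinning the shares in collecting duct-like nuclei were 31.1% and 98.6%. The P3 class held Mgat4c-led and Gsdmc3-led nuclei alone, 125 and 14 of 139, while 441 of the 620 nuclei at E18.5 were Rhcg-led.

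Aqp2 was found in 14.3% (11.6% to 17.3%) of thinned collecting duct-like nuclei at E18.5 and 7.19% (3.50% to 12.8%) at P3, against 2.84% and 1.13% of endothelium-like nuclei. Before thinning the shares were 34.5% and 37.4%. Scnn1b was found in 29.1% and 15.8% after thinning and Nr3c2 in 34.4% and 19.4%. For Nr3c2 the share of endothelium-like nuclei, 4.31% and 6.38%, is not read as background. At P3 the intervals for Aqp3 and Hsd11b2, each found in 0.719% (0.0182% to 3.94%), included the 0.626% of endothelium-like nuclei and were read as background.

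Many nuclei held several members. After thinning, 42.9% of collecting duct-like nuclei at E18.5 and 48.2% at P3 held 2 or more of the 10 members, against 0.550% and 0.626% of endothelium-like nuclei and 7.92% and 24.0% of ureteric tip-like nuclei. Distal tubule-like nuclei reached 18.8% and 40.6%, and intercalated-like nuclei 19.0% and 16.7%. At P3 3 or more members were found in 15.8% of distal tubule-like and 14.4% of collecting duct-like nuclei. Of 12 pairs (Aqp2 with each other member and the 3 subunit pairs), 0 had an interval for observed over expected nuclei off 1 at either age after thinning, and without thinning Aqp2 with Aqp4 at E18.5 did (1.24, 1.01 to 1.52). Aqp2 and Nr3c2 came closest at E18.5, with 41 nuclei holding both where 30.3 were expected (1.35, 0.972 to 1.84). Aqp2 and Slc14a2 were seen together in 11 nuclei where 16.4 were expected (0.670, 0.334 to 1.198). At P3 the expected number was below 10 for every pair, so co-detection could not be resolved at this depth. At E18.5 it ran from 1.71 to 3.78 for Aqp2 with Aqp3, Avpr2, Scnn1a and Hsd11b2, and for Scnn1a with Scnn1b and Scnn1g. Those pairs could not be resolved either.

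Over the 61 clusters of both libraries, the level of each member was set beside those of 15622 genes by the Pearson correlation of log2(CPM + 10). These correlations are across clusters that share libraries and depth, and are given as a description. Scnn1b and Scnn1g were each other's nearest gene at r = 0.95, followed by Cog7 at 0.92 and 0.91. Cog7 encodes a subunit of a Golgi complex. The nearest gene to Aqp2 was Fxyd4 (0.75), a regulator of the sodium pump in the collecting duct, and then Aqp4 (0.75). Aqp4 was nearest to Tex29 (0.91), Avpr2 to Elf5 (0.79), a transcription factor of principal cells, and Slc14a2 to C4bp (0.80).

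Elf5 alone, among the nearest genes named above and below, was in the list of collecting duct markers. Nr3c2 was nearest to Klhl3 (0.83), an adaptor that marks WNK kinases for degradation in the distal nephron. Scnn1a was nearest to Slc16a5 (0.91), Aqp3 to Gm16136 (0.81) and then the keratin gene Krt18 (0.79), and Hsd11b2 to A930017K11Rik (0.69). Among the members, Scnn1a went with Nr3c2 (0.80) more than with Scnn1b (0.69) or Scnn1g (0.61), and Slc14a2 was near 0 with Hsd11b2 (-0.02) and at 0.71 with Aqp4.

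The 44 other genes of these pathways, in 4 lists, were described in the same way. At E18.5 8 of 43 with enough UMIs were at least 2-fold higher in collecting duct-like than in other nuclei, where 8.77% of all genes were, and 7 were lower, where 21.3% were. At P3 3 of 42 were higher, where 10.4% of all genes were, and 10 were lower, where 33.4% were. The P3 counts are thus at or below what genes at large gave. The 3 that were higher at both ages were Fxyd4 at 13.01 (12.2 to 13.9) and 20.4 (18.45 to 22.6), St14 (the protease matriptase) at 4.89 and 4.01, and Tsc22d3 (a glucocorticoid- and aldosterone-induced gene) at 2.62 and 3.16.

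In the list of vasopressin signalling and Aqp2 traffic none of 13 genes was higher at either age, where 8.77% and 10.4% of all genes were. At E18.5 3 were lower (Avpr1a, Pde4b and Pde4d), where 21.3% of all genes were. At P3 2 were (Adcy3 and Pde4b), where 33.4% were. Gnas, which encodes the stimulatory G protein, was at 0.779 of its level in other nuclei at E18.5 and 0.781 at P3, and the adenylyl cyclase Adcy6 was at 1.79 and 1.73. The phosphodiesterase gene Pde4b was lower at both ages, at 0.251 and 0.106. In the list of aldosterone response and sodium handling 4 of 16 were higher at E18.5 (Nedd4l, Tsc22d3, St14 and Wnk4), where 8.77% of all genes were, and 2 at P3, near the 10.4% of all genes. Sgk1, a kinase induced by aldosterone, was at 1.77 and 1.71. Nedd4l, the ligase that removes ENaC from the membrane, was at 2.81 (2.69 to 2.93) at E18.5 but at 1.501 (1.39 to 1.62) at P3.

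Of the basolateral pump and potassium channels 3 of 8 were higher at E18.5 (Fxyd4, Kcnj10 and Kcnj16), where 8.77% of all genes were, and 1 (Kcnma1) was lower. At P3 1 of 8 was higher (Fxyd4), where 10.4% of all genes were, and 4 were lower (Fxyd2, Kcnj1, Kcnj10 and Kcnma1), where 33.4% were. Kcnj10 was at 4.64 (3.34 to 6.30) at E18.5 and at 0.491 (0.133 to 1.26) from 4 UMIs at P3. Of the other water and urea channels, Aqp5 alone was higher at E18.5 (8.06, 2.37 to 22.0, from 5 UMIs). Slc14a1, the neighbouring urea transporter gene of vessels and red cells, had 1 UMI in collecting duct-like nuclei at E18.5 and 3 at P3.

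**Figure D4:**
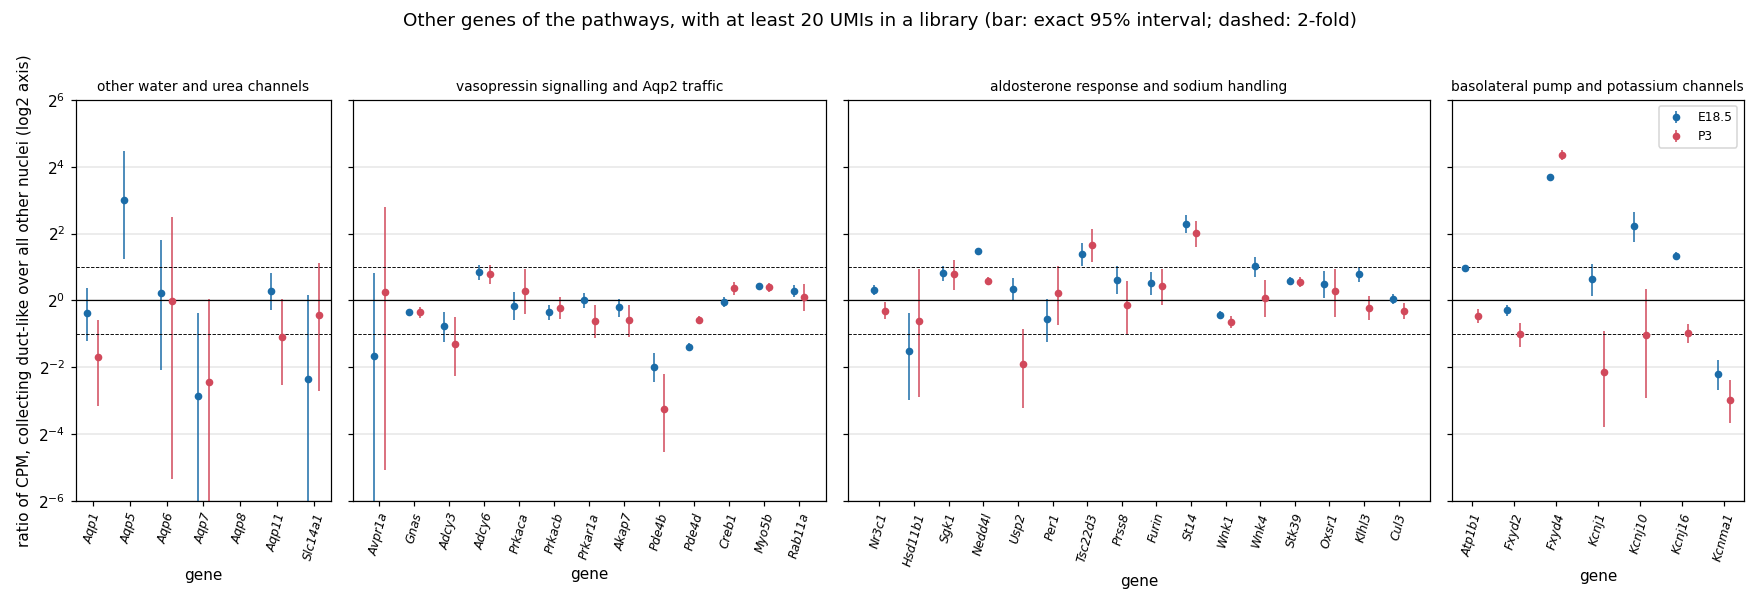
Ratio of CPM in collecting duct-like nuclei to that in all other nuclei (log axis) for the reported genes of the 4 pathway lists, at E18.5 and P3. Bars are exact 95% intervals from counting error, some of which reach beyond the axis, and genes at 0 UMIs in collecting duct-like nuclei are not drawn. Fxyd4, at 13.01 and 20.4, stood furthest above 1 at both ages.

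Between the ages 1 of 37 pathway genes was at least 2-fold higher in collecting duct-like nuclei at P3 and 9 were lower, against the 4.59% and 20.8% of all genes. The higher one was Pde4d, a phosphodiesterase that degrades cyclic AMP, at 2.70 (2.41 to 3.02). Pde4d was also higher in Rhcg-led nuclei, from 280.9 to 1193 CPM (4.25, 3.77 to 4.80), and in Mgat4c-led nuclei, from 162.4 to 776.6 CPM (4.78, 3.42 to 6.89). The lower ones included Kcnj10 at 0.203, Usp2 at 0.232 and Kcnj1 at 0.291. In Rhcg-led nuclei 6 of 36 pathway genes with enough UMIs were at least 2-fold lower at P3, namely Aqp11, Rab11a, Usp2, Tsc22d3, Oxsr1 and Fxyd2, where 15.2% of all genes were. In Mgat4c-led nuclei 0 of 27 were, where 12.7% of all genes were.

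Over all genes at 100 CPM or more at one age, 2567 in number, the highest ratios in collecting duct-like nuclei were those of Gm29684 (22.4), Agmo (21.7), Nos1 (20.9), Rtn1 (13.6) and Xkr4 (12.8). The lowest were those of Sprr2f, with 108.6 CPM at E18.5 and 0 UMIs at P3, Hsd3b6 (0.0214), Gm36388 (0.0440), Opcml (0.0566) and Fabp4 (0.102). Gm29684 and Nos1 were among the leading genes of the P3 Mgat4c-led sub-cluster, and Hsd3b6 and Opcml among those of the E18.5 Rhcg-led one.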

How the data were processed

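Nuclei of pooled mouse kidneys were profiled by droplet 3' RNA sequencing, with 1 library per age. The authors deposited counts of UMIs per gene and barcode for each library. Submitters' processing notes name Cell Ranger 5.0.1 and mm10 for both, and the matrix header of the E18.5 library names Cell Ranger 7.0.0 and that of P3 5.0.1. The paper's methods describe mixed background for both ages.

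Barcodes beyond 3 median absolute deviations for UMIs, genes or mitochondrial share were removed. Each library was normalised with scran 1.30.0 in R 4.3.3, reduced to 50 components of 2000 variable genes and clustered by Walktrap on a graph of 10 neighbours. The 10 members and 44 pathway genes were left out. Clusters were named from marker lists (at least 3 markers raised 2-fold), and the other naming rules were set after clusters were seen. Doublets were called with scanpy 1.11.5 (16.4% and 16.8%) and kept. Members and lists were chosen with earlier results of these data known. The genes named were the members, the pathway lists, markers, leading genes of the duct clusters, the 3 nearest genes of each member and the 5 highest and 5 lowest age ratios.

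UMIs were summed per nuclei type and divided by total UMIs to give CPM. With 1 library per age no test was run. Intervals are exact Poisson for CPM, exact binomial for shares and exact conditional binomial for ratios, all covering counting error only. A ratio needed 20 UMIs in all. Scripts were tested on simulated data. Alternatives were doublet removal, Leiden clusters, all barcodes, a marker definition, other averages and, chosen after seeing the data, sub-clusters and merged classes. Gene positions are from the GRCm38 annotation, promoters from RefSeq. The values of 1 gene are not reported here.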

Additional observations from a re-analysis of the deposited data

Results flagged for a closer look

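Barcodes removed by the quality limits, which enter only the alternative with all barcodes, still held member transcripts. At E18.5 the 330 removed barcodes held 106 UMIs of the 10 members, a summed level of 288.7 CPM (236.4 to 349.2) where 3 counts would give 8.17 CPM and the nuclei kept held 266.7 CPM. At P3 the 451 removed barcodes held 238 UMIs, a summed level of 471.7 CPM (413.6 to 535.6) where 3 counts would give 5.95 CPM and the nuclei kept held 425.9 CPM. Of these, 30 at E18.5 and 25 at P3 were Aqp2 UMIs, and 3 and 47 were Slc14a2 UMIs.

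Aqp3 and Hsd11b2 had ratios of collecting duct-like to other nuclei on opposite sides of 1 at the 2 ages. The Aqp3 ratio was 4.13 (3.23 to 5.21) in the E18.5 library but 0.728 (0.197 to 1.88) in the P3 library, and the Hsd11b2 ratio was 2.79 (2.18 to 3.53) in the former but 0.630 (0.171 to 1.62) in the latter. The P3 class held no Rhcg-led nuclei, and with the Rhcg-, Mgat4c- and Gsdmc3-led nuclei as the class both genes were at least 2-fold above other nuclei at P3. Both P3 values rest on 4 UMIs, and the difference between the ages was not tested.

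The ratio of P3 to E18.5 lay on opposite sides of 1 in Rhcg-led and Mgat4c-led nuclei for 3 members. It was 0.342 (0.233 to 0.487) and 2.01 (1.84 to 2.19) for Slc14a2, 1.36 (1.21 to 1.52) and 0.910 (0.654 to 1.29) for Nr3c2, and 1.04 (0.898 to 1.204) and 0.678 (0.497 to 0.935) for Scnn1b. These differences were not tested.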

How the results depend on the processing

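No paired analysis was possible because each age had 1 library. Of 466 values recomputed, 5 for single genes reversed, and these 5 are given here. Under the alternatives chosen after seeing the data, another 25 single-gene values moved beyond counting error and 30 did not. Under the other alternatives 89 single-gene values moved and 211 did not. Of the counts and shares, 10 moved and 10 stayed under the former, and 17 moved and 69 stayed under the latter. The single-gene values that moved are not listed one by one. The share of collecting duct-like nuclei, 2.91% at E18.5 and 1.18% at P3, became 3.35% and 1.41% without called doublets, 2.61% and 3.81% with Leiden clusters, 5.27% and 5.28% for nuclei with at least 2 of 3 markers, 2.62% and 2.27% for the Rhcg-, Mgat4c- and Gsdmc3-led sub-clusters, and 2.40% at E18.5 with all barcodes. Under the marker definition members highest in this class fell from 7 to 1 at E18.5 and from 4 to 2 at P3. There, nuclei of the collecting duct-like cluster short of 2 markers left the class. They were ranked against it as a group of their own if they numbered at least 50. The fall therefore need not mean that other nuclei types led. With the 3 sub-clusters as the definition, 10 members instead of 6 were at least 2-fold above other nuclei at P3. No share over all genes was computed for these sub-clusters as a class, for Leiden clusters, for the marker definition or for all barcodes. Members at least 2-fold lower at P3 numbered 5, and 2 with Leiden clusters, 3 with the marker definition, and 1 each with collecting duct-like and tip-like nuclei together, in Rhcg-led and in Mgat4c-led nuclei. The 1 member higher became 0 in Rhcg-led nuclei. Pathway genes higher went from 1 to 2 with Leiden clusters, all barcodes or Rhcg-led nuclei and to 4 with the marker definition, and those lower from 9 to 4 with Leiden clusters, 3 with both classes together and 0 with the marker definition or Mgat4c-led nuclei. Without thinning, 1 pair at E18.5 (Aqp2 and Aqp4, 1.24, 1.01 to 1.52) instead of 0 had an interval off 1. The age ratio reversed in Rhcg-led nuclei for Scnn1b (1.04), Nr3c2 (1.36), Hsd11b2 (1.21) and Slc14a2 (0.342), and for Nr3c2 with both classes together (1.11). With Leiden clusters a tip-like class stood apart at E18.5 and not at P3. In these alternatives nuclei enter or leave the class by construction, and the cause of the other changes was not tested. Values of Avpr2, and of Aqp3 and Hsd11b2 at P3, rest on few UMIs in collecting duct-like nuclei. The P3 Rhcg-led nuclei, outside that class, held 14 UMIs of Aqp3 and 31 of Hsd11b2.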
